A study of Caenorhabditis elegans with 4 samples.

Results

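The let-7 family of microRNAs (miRNAs) was examined in *C. elegans* adults for binding to the Argonautes ALG-1 and ALG-2. Its 4 members, let-7-5p, miR-48-5p, miR-84-5p and miR-241-5p, were taken by name from a table of 66 mature miRNAs, and all 4 were listed. Small RNAs were sequenced after co-immunoprecipitation (co-IP) of each Argonaute from whole animals on day 5 of adulthood, with 2 independent libraries per protein. ALG-1 was recovered from the strain FLAG::GFP::ALG-1 (PQ530) and ALG-2 from the strain FLAG::RFP::ALG-2 (PQ582), in both cases with an antibody against FLAG. Each strain rests on a single edited allele in which the tag was placed at the N-terminus of the endogenous gene, and each still has the other Argonaute without a tag. Animals of both strains were grown at the same temperature, with no treatment named, and eggs and larvae were removed before collection. The paper names OP50 bacteria as food only in its account of the lifespan assays. Input RNA and mock co-IPs were not analysed here, so no background could be subtracted. In whole animals, fewer cells that hold a miRNA and less of it per cell cannot be told apart.

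Argonaute proteins bring miRNAs to messenger RNAs, which are recognised mainly through the seed near the 5′ end of the miRNA. The let-7 family is defined by a shared seed and is conserved from worms to humans. In *C. elegans* it belongs to the heterochronic pathway, which sets the order of larval cell fates. let-7 promotes the switch from larva to adult and represses *lin-41*, a gene for a TRIM-NHL RNA-binding protein. miR-48, miR-84 and miR-241 act together at the switch from the second to the third larval stage and repress *hbl-1*, a gene for a Hunchback-like transcription factor.

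The genes lie at 3 places in the genome (RefSeq annotation, WBcel235). *mir-48* (F56A12.3, chromosome V, 14364412-14364509) and *mir-241* (F56A12.4, chromosome V, 14366188-14366283) are neighbours separated by 1678 bases. *mir-84* (B0395.4, chromosome X, 16022404-16022478) and *let-7* (C05G5.6, chromosome X) are on another chromosome. Within 10000 bases of either, 0 other miRNA genes were annotated. A further listed miRNA, miR-795-5p (*mir-795*, F33E2.9, chromosome I, 12594569-12594657), is counted among the let-7 relatives in *C. elegans* and was followed beside the 4 members.

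Values are normalized reads, meaning reads per 1000000 reads of the library (RPM). The depth, here the read total behind the RPM values as read from their step, was 11625117 reads (A) and 6428905 reads (B) for ALG-1. For ALG-2 it was 12401622 reads (A) and 25703472 reads (B). This total can be smaller than the number of reads sequenced, and percentages of a library or of its reads refer to it. Behind the 4 members stood between 1964 reads (miR-241-5p in ALG-2 library A) and 376768 reads (miR-48-5p in ALG-1 library A), with counting errors from 0.163% to 2.26%. Replicate libraries differed by more than these errors for each member in each co-IP, except for let-7-5p with ALG-1. Over all 66 miRNAs the median fold between replicate libraries was 1.27 for ALG-1 and 1.87 for ALG-2. Nothing in the labels ties the samples of a group to separate cultures, so the p-values given do not measure a spread between cultures. They rest on the spread between these libraries. For each miRNA, limma takes this spread partly from all 66 miRNAs. Its SEs and intervals can therefore be wider than the replicate values of a single miRNA would give.

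The 4 members were present in both co-IPs, and in every library they stood in the same order, with miR-48-5p first, followed by miR-84-5p, let-7-5p and miR-241-5p. By RPM, miR-48-5p held rank 7 and 8 of 66 in the ALG-1 libraries and rank 20 and 16 in the ALG-2 libraries. miR-84-5p held rank 28 in both ALG-1 libraries, and 32 and 29 in the ALG-2 libraries. let-7-5p was ranked 41 and 38 with ALG-1, and 48 and 52 with ALG-2. miR-241-5p stood near the end of the list, at rank 61 and 48 with ALG-1 and at rank 66 and 60 with ALG-2. The list holds only miRNAs with at least 1003 RPM summed over the libraries, so rarer miRNAs are not ranked. The order of the members was not disturbed by the spread between libraries, since the smallest ratio between neighbours within a library was 1.85 (let-7-5p over miR-241-5p in ALG-2 library B). Reads of different miRNAs depend also on how well adapters are joined to each sequence, so this is an order of RPM values and not of molecules.

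**Figure D1:**
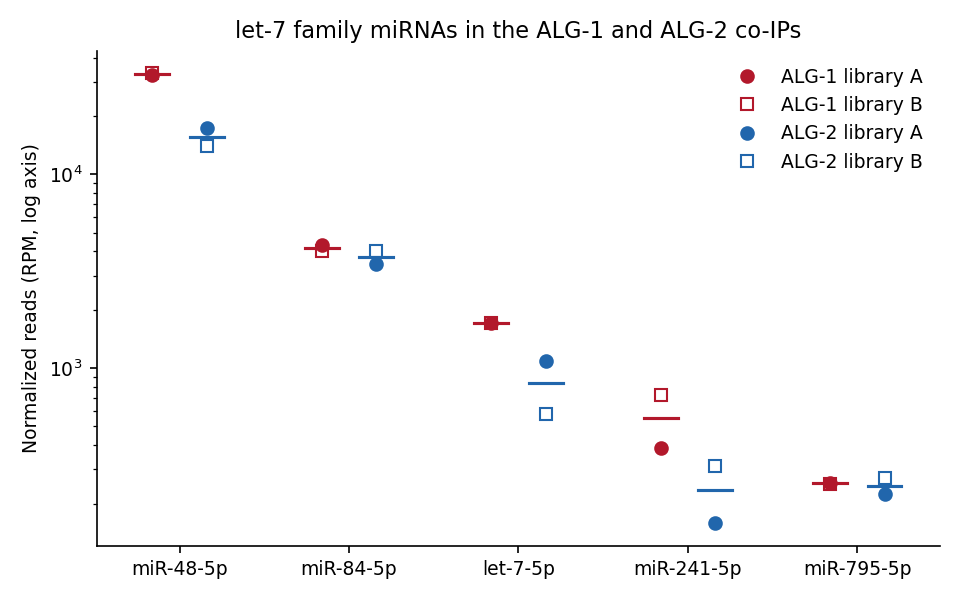
Normalized reads (RPM, log axis) of the 4 members and of miR-795-5p in each library, with ALG-1 in red and ALG-2 in blue, filled circles for library A, open squares for library B and lines for the means. miR-48-5p had 32410 and 33263 RPM with ALG-1, above the 17295 and 13972 RPM with ALG-2, whereas the values of miR-84-5p and miR-795-5p were close together.

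let-7-5p, the founding member, had 1713 RPM in both ALG-1 libraries, against 1093 and 578 RPM in ALG-2 libraries A and B. The groups did not overlap, and nearly all of the spread lay in the ALG-2 libraries. Among the 66 miRNAs, let-7-5p had the smallest difference between the ALG-1 libraries (rank 1), below the counting errors of 0.709% and 0.953% of the values, whereas its 1.89-fold difference between the ALG-2 libraries was ordinary (rank 34 from the smallest). The ALG-1 mean was 1713 ± 0.0775 RPM and the ALG-2 mean 836 ± 364 RPM (SD, n = 2 each). The log2 ratio, ALG-1 over ALG-2 throughout, was 1.11 ± 0.57 (SE, limma adjusted p = 0.302), with a 95% interval from -0.29 to 2.50. It was 1.56 without ALG-2 library A and 0.65 without ALG-2 library B.

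miR-48-5p had 32410 and 33263 RPM in the ALG-1 libraries, against 17295 and 13972 RPM in the ALG-2 libraries. Both ALG-1 values were nearly the same, and both were well above the ALG-2 values. Of the 4 members it combined a large difference between the co-IPs with little spread within either one, at 1.03-fold between the ALG-1 libraries and 1.24-fold between the ALG-2 libraries. The ALG-1 mean was 32836 ± 603 RPM and the ALG-2 mean 15633 ± 2350 RPM (SD, n = 2 each). The log2 ratio was 1.08 ± 0.44 (SE), with a 95% interval from 0.0097 to 2.15. The limma p was 0.0485 before and 0.188 after adjustment over the 66 miRNAs.

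miR-241-5p, encoded next to miR-48, had 385 and 725 RPM in ALG-1 libraries A and B, against 158 and 312 RPM in ALG-2 libraries A and B. The groups did not overlap, but the replicate libraries differed almost as much as the co-IPs. Library B exceeded library A 1.88-fold with ALG-1 and 1.97-fold with ALG-2. Of the 66 miRNAs, 2 were more than 1.5-fold higher in library B in both co-IPs, miR-241-5p and miR-81-3p, and 5 were so in library A, miR-229-5p, miR-236-3p, miR-250-3p, miR-61-3p and miR-77-3p (all but miR-241-5p named after their values were seen). The ALG-1 mean of miR-241-5p was 555 ± 240 RPM and the ALG-2 mean 235 ± 109 RPM (SD, n = 2 each). With 1.25 ± 0.68 (SE, limma adjusted p = 0.315), its log2 ratio was the largest of the 4 members and the least certain, with a 95% interval from -0.42 to 2.91. Leaving out a library gave 1.70 (A) and 0.79 (B) for those of ALG-1, and 0.76 (A) and 1.73 (B) for those of ALG-2. The listed miRNAs had at least 1003 RPM summed over the libraries. miR-241-5p summed to 1582 RPM, most of it from the ALG-1 libraries. A miRNA this rare can be listed through the co-IP where it is high, which limits what its ratio shows.

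miR-84-5p had 4344 and 4019 RPM in the ALG-1 libraries, against 3461 and 4010 RPM in the ALG-2 libraries. The groups touched, since ALG-1 library B and ALG-2 library B differed by less than the counting error of either value (0.622% and 0.311%). The ALG-1 mean was 4182 ± 230 RPM and the ALG-2 mean 3735 ± 388 RPM (SD, n = 2 each). The log2 ratio was 0.17 ± 0.48 (SE, limma adjusted p = 0.877). Its 95% interval, from -1.02 to 1.35, was wide enough to include the ratios of the other members.

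miR-795-5p, the rarest of the 66 miRNAs by mean RPM, had 255 and 253 RPM in the ALG-1 libraries, against 223 and 271 RPM in the ALG-2 libraries. The ALG-1 values lay between the ALG-2 values, so the groups overlapped. The log2 ratio of 0.05 ± 0.59 (SE) had a limma adjusted p of 0.940. Compared with miR-241-5p, it was lower in 3 of the 4 libraries and higher in ALG-2 library A, where miR-241-5p had 158 RPM, so their order was not fixed.

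Enrichment with an Argonaute was called when the RPM of both its libraries exceeded those of both libraries of the other by more than 1.5-fold, which sets 4 ratios for each miRNA. By this rule 2 of the 4 members were enriched with ALG-1, let-7-5p and miR-48-5p, whereas over all miRNAs 9 of 66 (13.6%) were. With ALG-2, 0 members were enriched, against 11 of 66 (16.7%). The 4 ratios of miR-48-5p ranged from 1.87 to 2.38 and those of let-7-5p from 1.57 to 2.96. The lowest ratio of let-7-5p, which decides the call, was just above the threshold, and it was the smallest among the 9 enriched miRNAs.

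miR-241-5p had 3 ratios above 1.5, up to 4.58, and a single lower ratio of 1.23, from library A of ALG-1 and library B of ALG-2. Its call therefore depended on how the libraries were paired. With pairs in the order of the columns its ratios were 2.43 and 2.32, and with crossed pairs they were 1.23 and 4.58. For miR-84-5p the 4 ratios ranged from 1.002 to 1.26. All 4 members were above 1 in each ratio, as were 18 of 66 miRNAs (27.3%), but for miR-84-5p this order was within counting error. Higher values in both ALG-2 libraries were found for 0 members, against 17 of 66 miRNAs (25.8%).

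By limma, 0 of the 4 members differed between the co-IPs at an adjusted p below 0.05, as did 0 of 66 miRNAs (0%) toward ALG-1 and 1 of 66 (1.52%) toward ALG-2. Before adjustment, 1 member, miR-48-5p, had a limma p below 0.05 toward ALG-1, against 7 of 66 miRNAs (10.6%), and 0 members did so toward ALG-2, against 10 of 66 (15.2%). The median log2 ratio was 0.13 over all 66 miRNAs. Ordered from the largest log2 ratio toward ALG-1, miR-241-5p was at place 11, let-7-5p at 14, miR-48-5p at 15 and miR-84-5p at 32.

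**Figure D2:**
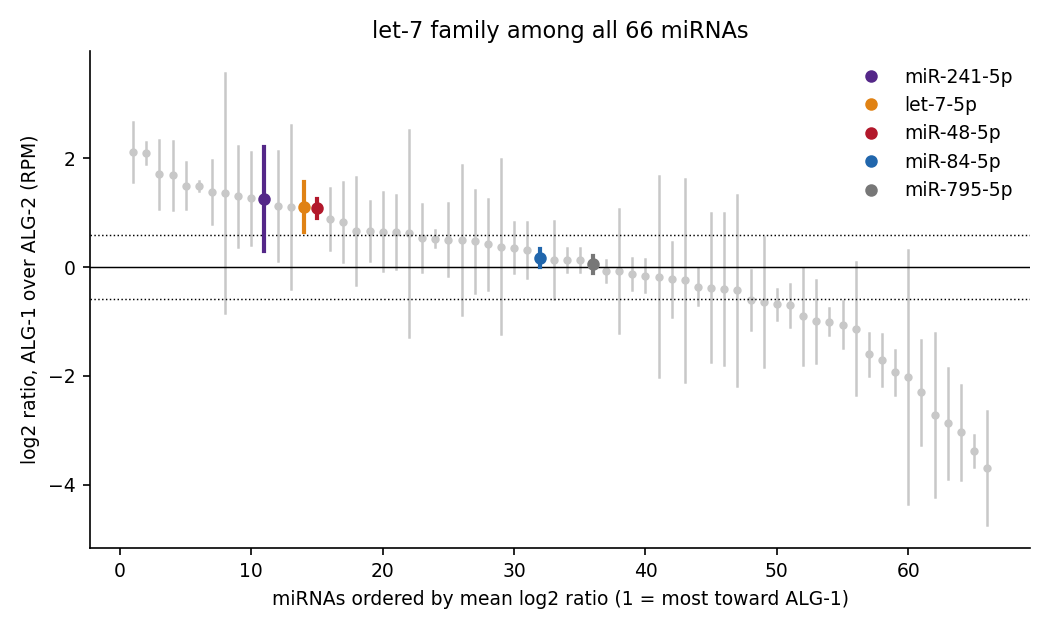
Mean log2 ratio (ALG-1 over ALG-2, RPM) of each of the 66 miRNAs, in descending order, with lines from the lowest to the highest of the 4 ratios and dotted lines at 1.5-fold. miR-241-5p, let-7-5p and miR-48-5p stood together at places 11 to 15, with the longest line for miR-241-5p, whereas miR-84-5p stood at place 32 near the line of no difference.

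As a sum, the 4 members took 3.89% and 3.97% of the reads with ALG-1, against 2.20% and 1.89% with ALG-2. Both ALG-1 libraries were above both ALG-2 libraries, and the 4 ratios ranged from 1.77 to 2.10. miR-48-5p alone accounted for 91.3% of the difference in mean RPM between the sums, let-7-5p for 4.65%, miR-84-5p for 2.37% and miR-241-5p for 1.70%. The log2 ratio of the sum was 0.95 ± 0.11 (SD between libraries, n = 2 each). Without miR-48-5p it was 0.42, with 6442 and 6457 RPM in the ALG-1 libraries, against 4713 and 4901 RPM in the ALG-2 libraries. The remaining 3 members thus summed to nearly the same value in libraries of the same co-IP. Single members did vary: from ALG-2 library A to B, let-7-5p fell from 1093 to 578 RPM. Over the same libraries miR-84-5p rose from 3461 to 4010 RPM and miR-241-5p from 158 to 312 RPM.

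In these 4 libraries the make-up of the family also differed between the co-IPs. miR-48-5p made up 83.4% and 83.7% of the family sum with ALG-1, against 78.6% and 74.0% with ALG-2. miR-84-5p made up 11.2% and 10.1% with ALG-1, against 15.7% and 21.2% with ALG-2. For both members the co-IPs did not overlap, with 2 libraries in each group and no test. The SD between libraries was 0.23 (ALG-1) and 3.22 (ALG-2) percentage points for miR-48-5p. For miR-84-5p it was 0.75 (ALG-1) and 3.91 (ALG-2) points. Counting error was smaller, at most 0.154 percentage points (half-width of the 95% Wilson interval, which covers counting only). Shares within a library add up to the whole, so those of miR-48-5p and miR-84-5p are not independent of each other. The share of let-7-5p was 4.41% and 4.31% with ALG-1, between the 4.97% and 3.06% found with ALG-2. miR-241-5p held 0.992% and 1.83% with ALG-1, against 0.720% and 1.66% with ALG-2, so that its share differed more between libraries A and B than between the Argonautes.

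**Figure D3:**
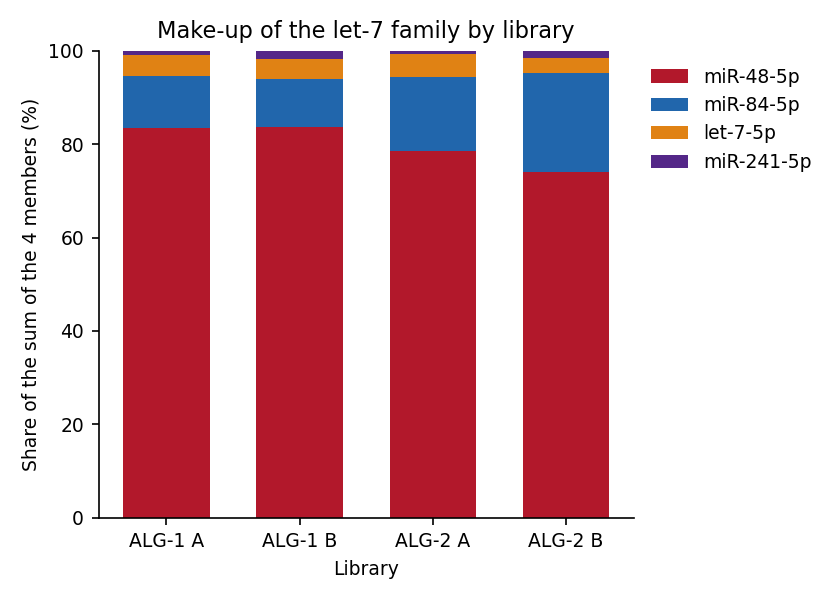
Share of each member (%) in the sum of the 4 members, by library. miR-48-5p made up at least 83.4% in the ALG-1 libraries and at most 78.6% in the ALG-2 libraries, and the share of miR-84-5p was higher in both ALG-2 libraries, at 15.7% and 21.2%.

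Ratios between members within a library do not depend on how libraries are scaled, so the 6 pairs of members were compared in this way. Pairs that include miR-84-5p separated the co-IPs, and the others did not. These pairs share miR-84-5p, so they are not separate observations. How many pairs among all listed miRNAs separate the co-IPs in this way was not counted. miR-48-5p exceeded miR-84-5p 7.46 and 8.28-fold in the ALG-1 libraries, against 5.00 and 3.48-fold in the ALG-2 libraries. miR-84-5p exceeded let-7-5p 2.54 and 2.35-fold with ALG-1, against 3.17 and 6.93-fold with ALG-2. Likewise, miR-84-5p exceeded miR-241-5p 11.3 and 5.54-fold with ALG-1, against 21.9 and 12.8-fold with ALG-2. Relative to each of the other 3 members, miR-84-5p was thus higher in both ALG-2 libraries than in either ALG-1 library. The log2 differences, ALG-1 minus ALG-2, were 0.91 for miR-48-5p over miR-84-5p, -0.94 for miR-84-5p over let-7-5p and -1.08 for miR-84-5p over miR-241-5p. With 2 libraries in each group an exact two-sided permutation test cannot give a p below 0.333, and these 3 pairs had that value (0.667 after adjustment over the 6 pairs), so this test could not take any of them past a threshold.

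The products of the neighbouring genes *mir-48* and *mir-241* kept no fixed ratio. miR-48-5p exceeded miR-241-5p 84.1 and 45.8-fold in ALG-1 libraries A and B, against 109 and 44.7-fold in ALG-2 libraries A and B. The ratio was high in library A and low in library B of both co-IPs, and the groups overlapped. The log2 difference between the co-IPs was -0.17, small compared to the SD of 0.78 between libraries (n = 2 each, exact permutation p = 1). Left-out libraries turned its sign, with a value of -0.81 without ALG-2 library B and 0.47 without ALG-2 library A. The ratio of miR-48-5p to let-7-5p, encoded on another chromosome, was steadier, at 18.9 and 19.4 with ALG-1, against 15.8 and 24.2 with ALG-2.

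**Figure D4:**
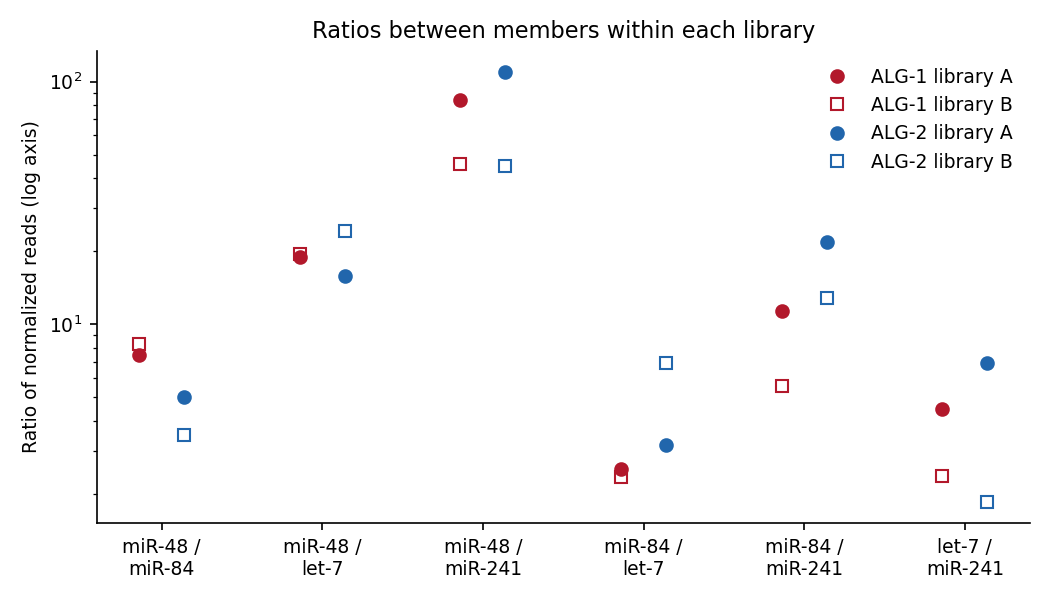
Ratio of normalized reads (log axis) for the 6 pairs of members within each library, with ALG-1 in red and ALG-2 in blue, filled circles for library A and open squares for library B. The co-IPs were apart in the 3 pairs with miR-84, such as 7.46 and 8.28 against 5.00 and 3.48 for miR-48 over miR-84, and overlapped in the other pairs.

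Because the listed miRNAs made up 99.3% to 99.5% of each library, a change of one abundant miRNA moves the RPM of all others. The miR-35 family, expressed chiefly in oocytes and embryos, took 4.84% and 4.19% of the reads with ALG-1, against 26.5% and 14.1% with ALG-2. After removal of its 6 listed members and rescaling, the ratios of miR-48-5p ranged from 1.45 to 2.13 and those of let-7-5p from 1.202 to 2.67. Neither passed the rule any longer, although both stayed above 1 in each ratio. miR-84-5p was then lower with ALG-1, with ratios from 0.891 to 0.978 and a log2 ratio of -0.0991. The log2 ratio of the family sum became 0.68 after this removal. Removal of the 3 most abundant miRNAs (miR-72-5p, miR-58a-3p and miR-82-3p) moved values the other way, to ratios from 2.14 to 2.70 for miR-48-5p, from 2.18 to 2.76 for let-7-5p and a log2 ratio of 1.13 for the sum.

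Median-of-ratios and TMM scaling, which set libraries to a common typical miRNA, gave smaller changes. let-7-5p no longer passed the rule, with a lowest ratio of 1.48 and 1.40, and miR-48-5p still did, with a lowest ratio of 1.77 and 1.67. Under both, the ratios of miR-84-5p fell on either side of 1. Measured from the median of all miRNAs, log2 ratios are the same before and after these 2 scalings, and were 0.97 for let-7-5p, 0.95 for miR-48-5p, 1.12 for miR-241-5p and 0.03 for miR-84-5p.

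**Figure D5:**
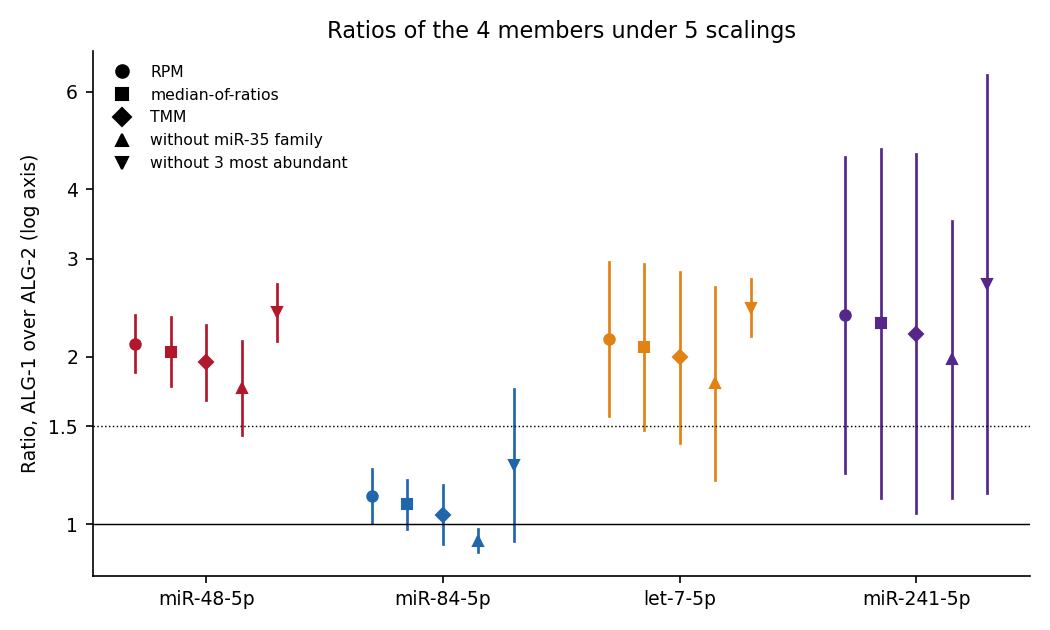
Ratio of ALG-1 over ALG-2 (log axis) for each member under 5 scalings, with symbols at the mean and lines from the lowest to the highest of the 4 ratios. The dotted line marks 1.5-fold. miR-48-5p fell short of it only without the miR-35 family, at a lowest ratio of 1.45, whereas miR-84-5p moved across 1.

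Another heterochronic miRNA listed, lin-4-5p, and its relative miR-237-5p form the lin-4 family. lin-4 controls the first larval switch by repressing *lin-14*, a gene for a nuclear factor of early larval fates. Both were enriched with ALG-1 by the rule, with lowest ratios of 2.10 and 2.09, whereas neither passed limma (adjusted p = 0.154 for lin-4-5p and 0.130 for miR-237-5p). Of the 6 miRNAs of the let-7 and lin-4 families, 4 were enriched with ALG-1 (13.6% of all 66 miRNAs were), 0 with ALG-2 (16.7%) and 0 passed limma after adjustment. The count leaves out the relative miR-795-5p, which was enriched with neither Argonaute (ratios from 0.932 to 1.14). The paper had already named lin-4 as enriched with ALG-1 in these libraries, so this count is a description and not a test of a pathway. As given above, the call of let-7-5p was lost under median-of-ratios and TMM scaling, and those of let-7-5p and miR-48-5p without the miR-35 family. Their families were not compared by a test. Within a library, the let-7 family sum exceeded that of the lin-4 family 2.72 and 2.36-fold with ALG-1, against 4.82 and 2.87-fold with ALG-2. In this ratio the log2 difference of -0.55 (SD between libraries 0.39) rested largely on ALG-2 library A, and was -0.18 without it and -0.93 without ALG-2 library B. Against the miR-35 family, the let-7 family sum was 0.803 and 0.949 of it with ALG-1, but 0.0831 and 0.134 of it with ALG-2.

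To find the miRNAs most like each member, log2 RPM values were centred over the 4 libraries and the root mean square (RMS) difference was taken. miR-48-5p and let-7-5p were closer to each other (0.22) than either was to any miRNA outside the family. The nearest others were miR-47-3p (0.24), miR-46-3p (0.26) and miR-238-3p (0.27) for let-7-5p, and miR-57-5p (0.25), miR-47-3p (0.25) and miR-71-5p (0.30) for miR-48-5p. miR-241-5p was nearest to miR-54-3p (0.25), miR-237-5p (0.29) and miR-63-3p (0.30), and its distance from miR-48-5p was 0.56. miR-84-5p followed miR-44-3p and miR-45-3p (0.05 for both, which carry identical values) and miR-795-5p (0.07), and its distances from the other members ranged from 0.50 to 0.71. With 4 libraries these distances describe the profiles only.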

How the data were processed

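The authors removed adapters (cutadapt, version not given in the sources used here), mapped reads to the WS261 genome with miRDeep2 and counted mature miRNAs of the miRBase annotation. They deposited normalized reads (RPM) in 4 columns, and miRNAs below 1000 reads were left out of their enrichment analysis. Columns name the Argonaute but not the replicate, so libraries were called A and B in column order and the 1.5-fold rule was required of all 4 ratios. The numbers in the column names are adjacent for the A libraries, and likewise for the B libraries. This goes with pairs in column order, but no label states that these numbers mark replicate pairs. In each column all 66 values were whole multiples of one step (within 0.0001), from which the depth was read. miRNAs with closely related sequences may share reads. Differences were tested with limma 3.58.1 (R 4.3.3) on log2(RPM + 1), with a variance trend and Benjamini-Hochberg adjustment over 66 miRNAs, threshold 0.05. The code was tested on simulated data. Family sums and shares are described without tests. Named miRNAs are the 4 members, their listed seed relative, neighbours within 10000 bases, the lin-4 and miR-35 families, and the 3 profiles nearest to each member. Members and lists were chosen with earlier results of these data known. The seed relationship of miR-795-5p was taken from general knowledge, and no sequences were read. Strand was not considered for neighbours. Alternatives covered scaling, thresholds, pseudocounts, pairing and left-out libraries.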

Additional observations from a re-analysis of the deposited data

How the results depend on the processing

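For the 4 members, 2 were enriched with ALG-1. The number was 0 at a 2-fold threshold or without the miR-35 family, 1 after median-of-ratios or TMM scaling, and 2 to 3 with one library left out, which relaxes the rule. Over all miRNAs, 9 and 11 were enriched with ALG-1 and ALG-2, the ratio of group means gave 17 and 22, a minimum of 4000 summed normalized reads gave 5 with ALG-1, and leaving out a library gave 12 to 18 and 11 to 18. By limma, 0 and 1 of 66 miRNAs passed toward ALG-1 and ALG-2 (7 and 10 before adjustment). Toward ALG-2, 4 passed after median-of-ratios or TMM scaling and 3 without a variance trend. The 1 that passed among all 66 was miR-37-3p, itself a member of the miR-35 family. Without that family 60 miRNAs were tested and 0 passed (5 before adjustment), so the loss of this call was fixed in advance. Without the 3 most abundant miRNAs 63 were tested and 0 passed (9 before adjustment). The replicate block left 0 and 1 with pairs in column order, and gave 2 and 5 with crossed pairs. With crossed pairs limma took the spread of each miRNA almost wholly from all 66. The total degrees of freedom were then 66, against 4.43 in column order, so these counts do not rank the pairings. Deviations from the group means correlated at -0.21 with pairs in column order. The 0.21 for crossed pairs is the same value with its sign turned, and not a separate result. The labels do not settle the pairing. The minimum of 4000 left miR-241-5p out. In the fits that included them, 0 of the 4 members passed limma, and let-7-5p, miR-48-5p and miR-241-5p had a positive log2 ratio. With a library left out, that ratio ranged from 0.65 to 1.56 for let-7-5p, from 0.92 to 1.23 for miR-48-5p, from 0.76 to 1.73 for miR-241-5p and from 0.059 to 0.27 for miR-84-5p. Over these fits the limma adjusted p ranged from 0.0836 to 0.875 for let-7-5p, from 0.0672 to 0.861 for miR-48-5p, from 0.408 to 0.991 for miR-84-5p and from 0.162 to 0.875 for miR-241-5p. The log2 ratio of miR-84-5p turned to -0.0991 without the miR-35 family. The family log2 ratio of 0.95 became 0.68 without the miR-35 family, 1.13 without the 3 most abundant miRNAs, 0.42 without miR-48-5p and 1.08 without miR-84-5p, and ranged from 0.84 to 1.06 with a library left out. Adding miR-795-5p gave 0.94, and the let-7 over lin-4 family difference ranged from -0.93 to -0.18 with a library left out, both chosen after seeing the data. The miR-48 over miR-241 difference ranged from -0.81 to 0.47 with a library left out. A left-out library leaves 1 in a group, which limma assumes to vary like the others. The planned count model was not run, since the values are normalized reads of only 66 miRNAs. The cause of these changes was not tested, and counting error limits none of them except the order of miR-84-5p.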
